A study of Mus musculus with 3 samples.

Results

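The genes of 6 leukocyte surface antigens were followed across cell classes of the mouse lung: Ptprc (CD45), Adgre1 (F4/80), Itgam (CD11b), Itgax (CD11c), Ly6g (Ly6G) and Siglecf (Siglec-F). They were chosen by symbol from the 55357 features of the count matrices, and all 6 were present. CD45, F4/80, CD11b, CD11c and Ly6G were the antigens stained for the sort. Siglec-F was not among the stained antigens that the labels' protocols name, so that it is an antigen often used for lung macrophages and not one of this gate. The cells came from lungs of wild-type C57BL/6 mice and were sequenced as single cells in droplets, from the 3′ ends of their RNA, in 3 libraries, 1 per group. One group received LPS at 4 mg/kg together with 6 µg of the lectin Reg3g, one received LPS at 4 mg/kg alone, and the control group received PBS. Each was given into the trachea in 50 µL, and lungs were taken after 24 h. LPS is a bacterial endotoxin that serves here as a model of acute lung injury, and Reg3g is a secreted lectin known for binding bacteria. The labels used here give neither age nor sex. Each library held the pooled cells of 3 mice. The sort took live cells that stained for CD45, for F4/80 and for at least one of CD11b and CD11c, and that did not stain for Ly6G. The counts measure RNA, whereas the gate was set on antibody staining of protein, so that the antigens selected the cells whose RNA is described here.

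CD45 is a receptor tyrosine phosphatase that sets the activity of Src-family kinases and is carried by nearly all blood-derived cells. F4/80 is an adhesion-type receptor of macrophages. CD11b and CD11c are alpha chains that each pair with the common beta chain CD18 (Itgb2) to form the integrins known as complement receptors, with ligands that include cleaved complement and fibrinogen. In the resting mouse lung, alveolar macrophages are known as CD11c-high, Siglec-F-high and CD11b-low cells, while monocytes and interstitial macrophages carry CD11b. Siglec-F is a sialic acid-binding inhibitory receptor of alveolar macrophages and eosinophils, and Ly6G is a GPI-anchored protein of neutrophils.

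The 2 integrin chains are encoded side by side. In GRCm38 with the GENCODE M21 annotation, Itgam lies on chr7:128062640-128118491 and Itgax on chr7:128129547-128150657, both on the plus strand and 11055 bases apart. Siglecf lies on the same chromosome at chr7:43351341-43359531 on the plus strand. Ptprc lies on chr1:138062861-138175708 on the minus strand, Adgre1 on chr17:57358691-57483527 and Ly6g on chr15:75155240-75159126, both on the plus strand. Itgax and Siglecf were highest in alveolar-macrophage-like cells among named classes, and Itgam and Siglecf differed most between LPS and PBS in those cells. The bases before the RefSeq start sites of Itgam, Itgax and Siglecf are therefore shown. They run 5′ to 3′ over 250 bases on the plus strand of GRCm38.p6, and capitals mark motif matches on either strand.
Itgam, chr7:128062390-128062639: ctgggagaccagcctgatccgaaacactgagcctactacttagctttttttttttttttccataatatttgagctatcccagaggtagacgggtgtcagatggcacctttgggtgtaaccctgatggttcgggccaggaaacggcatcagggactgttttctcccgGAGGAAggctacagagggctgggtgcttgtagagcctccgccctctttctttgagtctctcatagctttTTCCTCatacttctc
Itgax, chr7:128129300-128129549: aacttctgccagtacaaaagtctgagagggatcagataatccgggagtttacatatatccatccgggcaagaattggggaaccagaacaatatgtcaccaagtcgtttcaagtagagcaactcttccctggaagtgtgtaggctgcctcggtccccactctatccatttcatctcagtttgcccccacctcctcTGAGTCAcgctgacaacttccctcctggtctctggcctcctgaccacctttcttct
Siglecf, chr7:43351091-43351340: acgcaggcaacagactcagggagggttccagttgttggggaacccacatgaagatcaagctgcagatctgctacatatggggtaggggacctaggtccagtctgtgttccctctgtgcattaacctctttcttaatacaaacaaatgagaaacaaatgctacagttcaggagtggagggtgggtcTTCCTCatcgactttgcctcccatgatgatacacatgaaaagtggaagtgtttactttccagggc
Searched on both strands were GAGGAA, a core that the myeloid factor PU.1 can bind, TGANTCA, an AP-1 site, and TTGCNNAA, a C/EBP core. The Itgam window held GAGGAA 84 bases before the start on the plus strand and 15 bases before it on the minus strand. The Itgax window held TGANTCA 56 bases before the start, and the Siglecf window held GAGGAA 65 bases before it on the minus strand. Of 27025 windows of the same length, 23.1% held GAGGAA, 6.87% TGANTCA and 9.55% TTGCNNAA. A match is a description of letters and not a shown binding site.

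The 3 libraries held 10213 barcodes with LPS and Reg3g, 15015 with LPS and 8475 with PBS. After filters on depth, mitochondrial RNA and doublets, 9281, 13015 and 7860 cells were kept in this order, with medians of 5459, 4216 and 5923.5 unique molecular identifiers (UMIs, each standing for 1 captured molecule). Between 28 and 37 barcodes were shared by any pair of libraries. Cells were clustered without the 6 genes, and names of the form X-like were given from lists of markers that did not hold them, so their levels did not form the classes. Of 23 clusters, 4 stayed unnamed. One of them, led by Arg1, Upp1, Ccl12 and Ccl2, held 906 cells with LPS and Reg3g, 1603 with LPS and 1 with PBS. Levels are UMIs per 1000000 UMIs of the class in that library (CPM). Their 95% intervals, exact Poisson for CPM, exact Clopper-Pearson for shares and exact conditional binomial for ratios, cover counting error only and not the spread between mice. With 1 library per group there was no replicate check and no test. Differences between libraries therefore compare these libraries.

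Alveolar-macrophage-like cells made up 4120 cells with LPS and Reg3g (44.4% of those kept), 5057 with LPS (38.9%) and 3556 with PBS (45.2%). They lay in different clusters by group. Cluster 18, led by Cxcl3 and Fstl1, took up 53.4% of them with LPS and Reg3g and 61.8% with LPS, and cluster 2 took up 93.6% with PBS. Monocyte-like cells were likewise split: the classical ones lay mainly in clusters 14 and 16 in both LPS libraries and in cluster 8 with PBS, and the nonclassical ones in cluster 11 in both LPS libraries and in cluster 6 with PBS. In these alveolar-macrophage-like cells LPS went with 28.1-fold more Itgam and 1.80-fold more Adgre1 RNA than PBS, with 2.03-fold less Ptprc and 10.4-fold less Siglecf RNA, and with nearly equal Itgax RNA. Reg3g given with LPS was accompanied by small differences, largest for Siglecf.

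**Figure D1:**
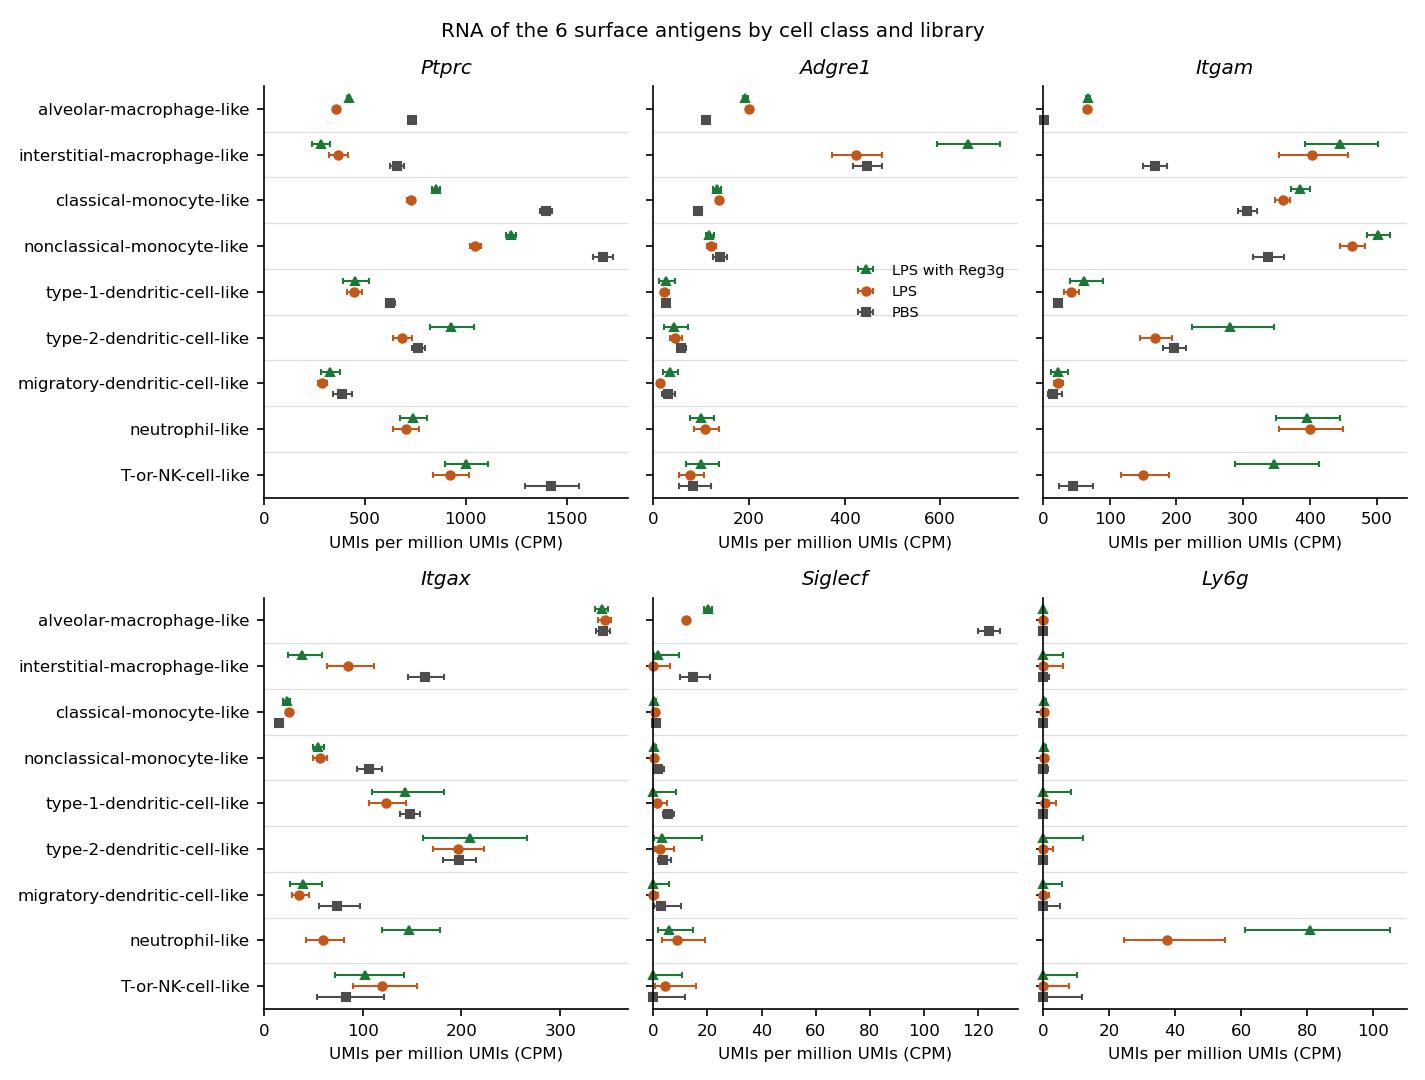
RNA level of each gene (x axis, CPM, linear and on its own scale in each panel) by cell class (rows) and library (triangles LPS with Reg3g, circles LPS, squares PBS), with exact Poisson 95% intervals, for classes of at least 50 cells in a library. Itgax and Siglecf peak in alveolar-macrophage-like cells, Adgre1 in interstitial-macrophage-like cells, and Ly6g stands clear of 0 in neutrophil-like cells alone.

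Itgam showed the widest contrast. In alveolar-macrophage-like cells its level was 67.1 CPM (2134 UMIs) with LPS and Reg3g, 65.7 CPM (2050 UMIs) with LPS and 2.34 CPM (66 UMIs) with PBS. Both LPS libraries were high and the PBS library was near zero. LPS over PBS was 28.1-fold, a log2 ratio of 4.81 (95% interval 4.46 to 5.19). LPS with Reg3g over LPS gave a log2 ratio of 0.029 (-0.059 to 0.12). Even so, the level in the LPS libraries stayed well below that of monocytes. Classical-monocyte-like cells had 386 CPM with LPS and Reg3g, 359 with LPS and 306 with PBS, and nonclassical-monocyte-like cells had 502, 464 and 338 CPM in the same order. Interstitial-macrophage-like cells had 445 CPM with LPS and Reg3g, 403 with LPS and 167 with PBS, with a log2 ratio of LPS over PBS of 1.27 (1.02 to 1.51). The unnamed cluster led by Arg1 stood highest, with 674 CPM with LPS and Reg3g and 595 with LPS.

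Markers of monocytes and neutrophils were measured beside Itgam in alveolar-macrophage-like cells. The Itgam level there was 17.4% of that in classical-monocyte-like cells with LPS and Reg3g, 18.3% with LPS and 0.764% with PBS. The classical monocyte list has 10 markers, of which Chil3 is also an alveolar macrophage marker and was left out of this comparison. With it, the list summed to 5482 CPM in alveolar-macrophage-like cells with LPS and Reg3g, 5394 with LPS and 7433 with PBS. For 7 of the other 9 classical monocyte markers, among them Ly6c2, Ccr2 and Plac8, the same percentage lay between 0.525% and 1.92% with LPS and Reg3g and between 1.03% and 2.70% with LPS. The exceptions were Fn1, at 26.3% and 32.7%, and Hp, at 24.2% and 31.2%, for the libraries in the same order. With PBS, Fn1 stood at 41.1%, and the other markers of this comparison lay between 0.224% (Ly6c2) and 1.10% (Vcan). That range held the 0.764% of Itgam. The part of RNA from other cells in the PBS level of Itgam, the reference of its LPS over PBS ratio, was not tested. Set against neutrophil-like cells, Itgam stood at 17.0% with LPS and Reg3g and 16.4% with LPS. The 12 neutrophil markers lay between 0.0681% (Mmp9) and 15.9% (Acod1) with LPS and Reg3g, and between 0.0223% (Mmp9) and 21.1% (Acod1) with LPS, with Trem1 next below Acod1 at 8.18% and 8.50%. They were all seen in alveolar-macrophage-like cells and summed to 347 CPM there with LPS and Reg3g, 375 with LPS and 129 with PBS. The unnamed cluster led by Arg1 held 24.7% of the Itgam UMIs with LPS and Reg3g and 29.7% with LPS. Its leading genes were not compared in this way as a set.

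Counted per cell, an Itgam UMI was found in 31.1% of the class with LPS and Reg3g, 29.0% with LPS and 1.66% with PBS. At an equal depth of 1000 UMIs per cell these shares were 5.80% (5.11 to 6.56), 6.15% (5.50 to 6.85) and 0.253% (0.116 to 0.480). Without thinning, cells with 3 or more Itgam UMIs numbered 195 of 4120 with LPS and Reg3g, 115 of 5057 with LPS and 1 of 3556 with PBS. These counts are not at equal depth. Type-1-dendritic-cell-like cells, a type known for lacking CD11b, had thinned shares of 1.45% with LPS and Reg3g, 3.27% with LPS and 1.48% with PBS. Lymphoid cells (T-or-NK-cell-like and B-cell-like) had higher thinned shares, 13.8%, 7.95% and 2.44% in the same order, at median depths of 2261.5, 1864.5 and 2127 UMIs against 7557, 6045 and 7665.5 in alveolar-macrophage-like cells. Natural killer cells carry CD11b themselves, so this class is not a clean background for Itgam. Its neutrophil markers also moved, summing to 2310 CPM with LPS and Reg3g, 994 with LPS and 103 with PBS, and the part of carried-over RNA in lymphoid Itgam was not tested.

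**Figure D2:**
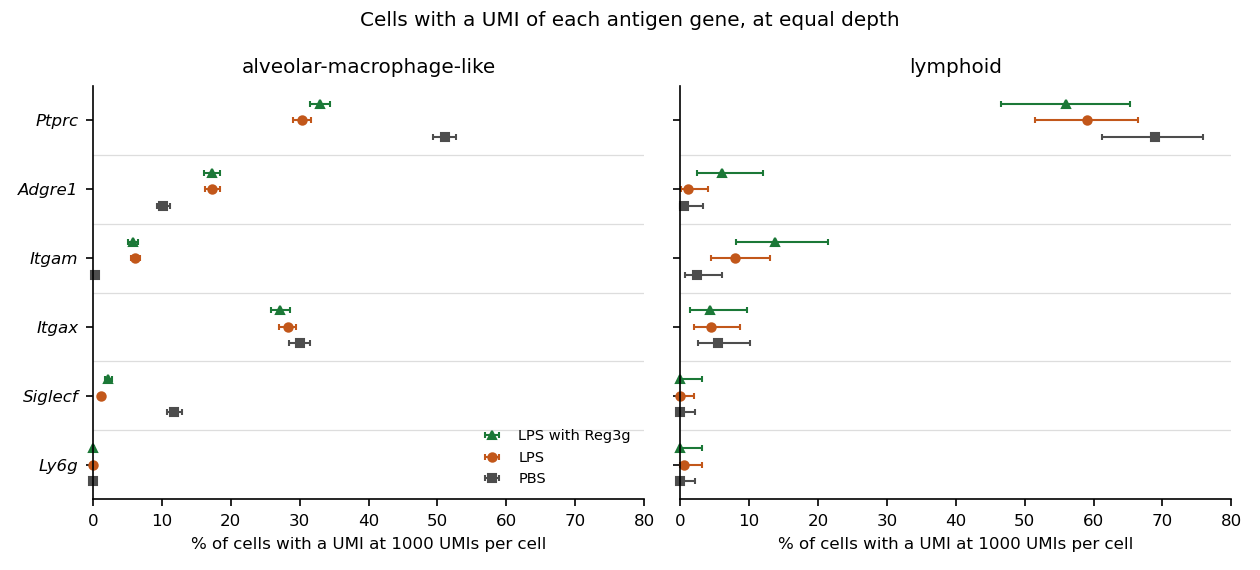
Percent of cells with at least 1 UMI of each gene (x axis) after thinning every cell to 1000 UMIs, in alveolar-macrophage-like cells (left) and lymphoid cells (right), by library, with exact Clopper-Pearson 95% intervals. The Itgam share in alveolar-macrophage-like cells is near 6% in both LPS libraries and 0.253% with PBS, while the Siglecf share is 11.8% with PBS and at most 2.23% in the LPS libraries.

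Itgax marked alveolar-macrophage-like cells in each library at close to the same level. It stood at 342 CPM (335 to 348) with LPS and Reg3g, 345 (339 to 352) with LPS and 343 (336 to 350) with PBS, the highest of all named classes in every library. An unnamed cluster led by mitochondrial and ribosomal genes was close, at 342 CPM (276 to 419) with LPS and Reg3g, 325 (252 to 412) with LPS and 330 (275 to 392) with PBS. The intervals overlapped. The log2 ratio was -0.014 (-0.053 to 0.024) for LPS with Reg3g over LPS and 0.0089 (-0.031 to 0.049) for LPS over PBS. The scale matters here, because the log2 ratio of LPS over PBS had a median of -0.25 over the 7841 genes measured here. Relative to that median, the log2 ratio of LPS over PBS was 0.26 for Itgax, 5.07 for Itgam, 1.10 for Adgre1, -0.77 for Ptprc and -3.12 for Siglecf, so that Itgax stood above the typical gene although its CPM was level. Its sign depended on the scaling: it was 0.32 by median-of-ratios, 0.35 by a trimmed mean and -0.073 with cells thinned to 1000 UMIs. At equal depth 27.2% of these cells had an Itgax UMI with LPS and Reg3g, 28.3% with LPS and 30.0% with PBS, against 4.31%, 4.55% and 5.49% of lymphoid cells. Type-2-dendritic-cell-like cells came next with 209 CPM with LPS and Reg3g, 196 with LPS and 197 with PBS. In monocytes the directions were opposed. Classical-monocyte-like cells had 22.9 CPM with LPS and Reg3g, 25.5 with LPS and 15.5 with PBS, whereas nonclassical-monocyte-like cells had 54.9, 56.5 and 106 CPM in the same order. Interstitial-macrophage-like cells had 38.9 CPM with LPS and Reg3g, 84.9 with LPS and 163 with PBS, from 127, 161 and 471 cells.

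The balance between the chains can be read without regard to depth, as the share of Itgam among the UMIs of both genes. In alveolar-macrophage-like cells it was 16.4% (15.8 to 17.0) with LPS and Reg3g, 16.0% (15.4 to 16.6) with LPS and 0.677% (0.524 to 0.860) with PBS. In classical-monocyte-like cells it was above 93% in each library. Interstitial-macrophage-like cells had 92.0% (88.2 to 94.8) with LPS and Reg3g, 82.6% (77.8 to 86.7) with LPS and 50.6% (46.7 to 54.5) with PBS, the 3 intervals standing apart. Nonclassical-monocyte-like cells had 90.1%, 89.1% and 76.1% in the same order. Type-1-dendritic-cell-like cells leaned to Itgax with 30.3%, 25.2% and 13.1%. Over all kept cells, Itgam made up 50.3% of these UMIs with LPS and Reg3g, 51.2% with LPS and 24.1% with PBS. Because counts of 3′ ends can differ in capture between genes, these percentages compare libraries and classes and not the amounts of the 2 chains in a cell.

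**Figure D3:**
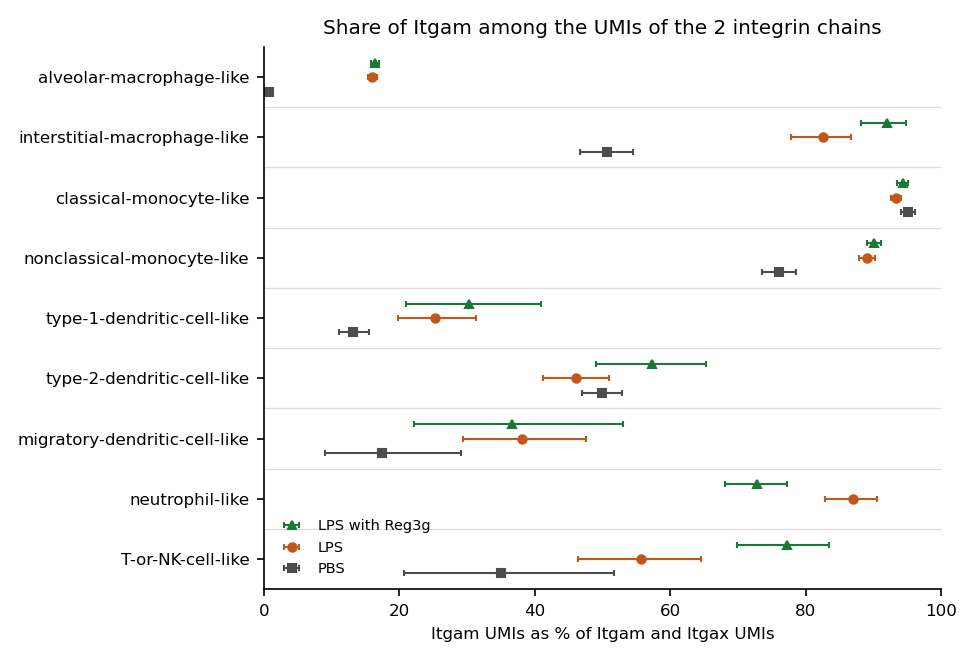
Itgam UMIs as a percent of the Itgam and Itgax UMIs of a class (x axis, 0 to 100%), by cell class (rows) and library, with exact Clopper-Pearson 95% intervals, for classes of at least 50 cells in a library. Alveolar-macrophage-like cells stand at 16.4% with LPS and Reg3g, 16.0% with LPS and 0.677% with PBS, and interstitial-macrophage-like cells at 92.0%, 82.6% and 50.6%.

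Siglecf was confined mostly to alveolar-macrophage-like cells, which held 96.4% of its UMIs with LPS and Reg3g, 91.9% with LPS and 96.6% with PBS. Its level there was 20.2 CPM (18.7 to 21.9) with LPS and Reg3g, 12.0 CPM (10.8 to 13.3) with LPS and 124 CPM (120 to 128) with PBS. Both LPS libraries were low, and their intervals did not overlap. LPS with Reg3g over LPS was 1.69-fold, a log2 ratio of 0.76 (0.57 to 0.94), and LPS was 10.4-fold lower than PBS, a log2 ratio of -3.37 (-3.53 to -3.22). Cells with a Siglecf UMI made up 12.8% with LPS and Reg3g, 6.66% with LPS and 59.6% with PBS, and at equal depth 2.23%, 1.21% and 11.8%. No lymphoid cell had a Siglecf UMI at that depth in any library. Classical- and nonclassical-monocyte-like cells had at most 1.55 CPM in any library. With LPS, neutrophil-like cells had 8.70 CPM (3.19 to 18.9) from 6 UMIs and T-or-NK-cell-like cells 4.34 (0.526 to 15.7) from 2 UMIs. Both intervals overlapped that of alveolar-macrophage-like cells in this library. With LPS and Reg3g, neutrophil-like cells had 5.77 CPM (1.57 to 14.8) from 4 UMIs, below the alveolar-macrophage-like interval. Interstitial-macrophage-like cells with PBS had 14.5 CPM from 29 UMIs. They had 1 UMI with LPS and Reg3g and 0 with LPS, and at these depths a difference between the LPS libraries was not detectable.

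Among the clusters of alveolar-macrophage-like cells, clusters 18 and 19 differed in Itgam and Siglecf in opposite directions. Cluster 18 had 85.6 CPM of Itgam and 8.27 of Siglecf with LPS and Reg3g, and 72.5 and 6.08 CPM with LPS. Cluster 19, led by Tnf, Cxcl1 and Ereg, had 28.8 CPM of Itgam and 56.9 of Siglecf with LPS and Reg3g, and 42.2 and 36.7 CPM with LPS. Cluster 17, led by Cxcl9 and Rsad2, was not placed along this contrast: it had 46.0 CPM of Itgam and 9.68 of Siglecf in its 52 cells with LPS and Reg3g, and 50.7 and 3.75 CPM in its 76 cells with LPS. Cluster 19 made up 20.2% of these cells with LPS and Reg3g and 12.5% with LPS. With the clusters weighted as in the LPS library, a choice made after seeing the data, the Siglecf log2 ratio of LPS with Reg3g over LPS was 0.49 in place of 0.76. The clusters were formed from the same cells without these genes, and no cluster was set against the rest by a test. Ptprc was also higher in cluster 19, with 610 CPM with LPS and Reg3g and 522 with LPS, than in cluster 18, with 380 and 329 CPM. Adgre1 ran the other way, with 134 and 142 CPM in cluster 19 and 213 and 212 CPM in cluster 18. Cluster 2 had 3.64 CPM of Itgam from 1 UMI and 91.0 of Siglecf in its 53 cells with LPS and Reg3g, 12.3 and 36.9 CPM in its 61 cells with LPS, and 1.93 and 127 CPM in its 3330 cells with PBS. Cluster 4, led by Wfdc21 and Ear6, was larger than cluster 19 in both LPS libraries. It held 324 Itgam and 121 Siglecf UMIs in 881 cells with LPS and Reg3g, where cluster 19 held 154 and 304 in 834. With LPS it held 348 and 103 in 1064 cells, where cluster 19 held 138 and 120 in 634. The cycling cluster 5 held 22 and 34 UMIs in 99 cells with LPS and Reg3g, and 20 and 13 in 95 with LPS. These sums are not at equal depth, with medians of 6928, 8304 and 6140.5 UMIs in clusters 4, 5 and 19 with LPS and Reg3g. By the share of Itgam among the UMIs of both chains, cluster 4 lay between clusters 18 and 19. It had 13.8% with LPS and Reg3g and 15.7% with LPS, against 18.7% and 16.6% in cluster 18 and 9.73% and 12.9% in cluster 19.

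**Figure D4:**
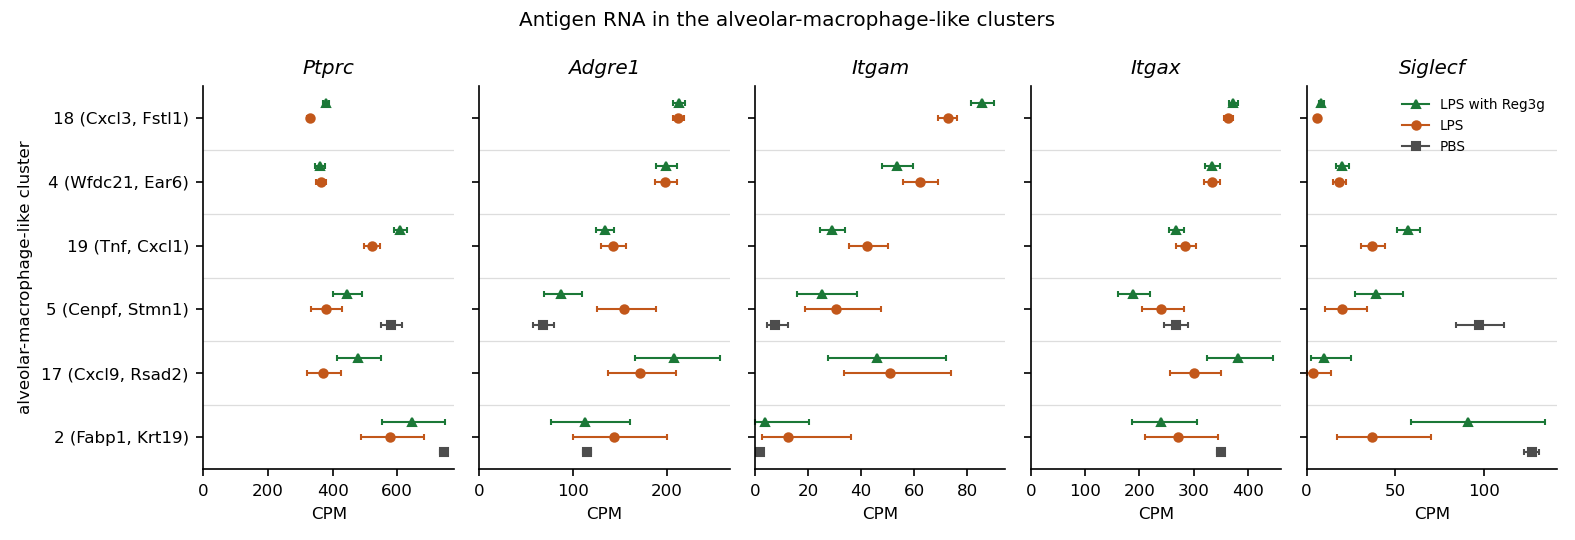
CPM of 5 antigen genes (x axis, linear, own scale per panel) in the alveolar-macrophage-like clusters (rows) by library, with exact Poisson 95% intervals, for clusters with at least 50 cells in the library drawn. In the LPS libraries cluster 18 has the most Itgam, with 85.6 CPM with LPS and Reg3g and 72.5 with LPS, and cluster 19 has 56.9 CPM of Siglecf with LPS and Reg3g and 36.7 with LPS.

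Both genes were also counted cell by cell. With cells thinned to 2000 UMIs, the library with LPS and Reg3g had a Siglecf UMI in 1.33% of the alveolar-macrophage-like cells that also had an Itgam UMI, and in 4.37% of those that did not. With LPS these shares were 0.879% and 2.94%. Cells with UMIs of both genes numbered 6 with LPS and Reg3g, where the product of the separate shares gives 18.1, and 5 with LPS, where it gives 15.4. With PBS, where 18 cells had an Itgam UMI, the order was the other one: 5 cells had both against a product of 3.87. Itgam and Itgax were not opposed, with 249 cells holding both against a product of 209 with LPS and Reg3g, and 278 against 267 with LPS, beside 7 against 8.74 with PBS. These are descriptions of cells from 1 library each, and cells of a library are not replicates.

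Adgre1 was highest in interstitial-macrophage-like cells, with 657 CPM (593 to 726) with LPS and Reg3g, 423 (373 to 478) with LPS and 447 (418 to 477) with PBS. The library with Reg3g stood above the others, a log2 ratio over LPS of 0.64 (0.41 to 0.87) from 127 and 161 cells. In alveolar-macrophage-like cells the level was 193 CPM with LPS and Reg3g, 200 with LPS and 111 with PBS. The log2 ratio was -0.054 (-0.11 to -0.0031) for LPS with Reg3g over LPS and 0.85 (0.79 to 0.91) for LPS over PBS. The first of these had the other sign, 0.011, with cells thinned to 1000 UMIs. At equal depth 17.2% of these cells had an Adgre1 UMI with LPS and Reg3g, 17.3% with LPS and 10.2% with PBS, against 6.03%, 1.14% and 0.610% of lymphoid cells. Classical-monocyte-like cells had 133, 137 and 94.0 CPM in the same order, and nonclassical-monocyte-like cells 117, 121 and 139 CPM. The log2 ratio of LPS over PBS was thus 0.54 (0.40 to 0.68) in the classical and -0.20 (-0.39 to -0.01) in the nonclassical class. Type-1-dendritic-cell-like cells had 25.3, 22.6 and 25.9 CPM and migratory-dendritic-cell-like cells 33.7, 13.8 and 30.0 CPM, the lowest classes of at least 50 cells in the LPS libraries, although the sort required F4/80. With PBS, the 66 B-cell-like cells were lower still, at 0 CPM (up to 26.0).

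Ptprc was lower in both LPS libraries than with PBS in alveolar-macrophage-like cells, interstitial-macrophage-like cells and both monocyte classes. Alveolar-macrophage-like cells had 420 CPM (413 to 427) with LPS and Reg3g, 359 (353 to 366) with LPS and 731 (721 to 741) with PBS. LPS was 2.03-fold lower than PBS, a log2 ratio of -1.02 (-1.06 to -0.99). That ratio was -0.94 in classical-monocyte-like, -0.68 in nonclassical-monocyte-like, -0.84 in interstitial-macrophage-like and -0.62 in T-or-NK-cell-like cells. LPS with Reg3g over LPS gave 0.22 (0.19 to 0.26) in alveolar-macrophage-like cells and 0.23 in both monocyte classes, and -0.39 (-0.68 to -0.09) in interstitial-macrophage-like cells. Among named classes of at least 50 cells, nonclassical-monocyte-like cells had the highest level in each library, with 1224 CPM with LPS and Reg3g, 1047 with LPS and 1679 with PBS. An unnamed cluster led by Hdc, Cyp11a1 and Gata2 had 1385 CPM (1186 to 1608) in 82 cells with LPS and Reg3g and 1372 (1151 to 1622) in 74 cells with LPS. Cells with a Ptprc UMI made up 89.0% of this class (alveolar-macrophage-like) with LPS and Reg3g, 81.4% with LPS and 98.1% with PBS, and at equal depth 32.9%, 30.3% and 51.0%. Structural cells, which do not carry CD45, still had thinned shares of 34.6%, 31.1% and 23.1%, from 26, 45 and 52 cells that had passed a CD45 gate. An unclassified same-strand gene that overlaps Ptprc but not its exons, A130071D04Rik, had 31.5 CPM in alveolar-macrophage-like cells with LPS and Reg3g, 21.4 with LPS and 68.9 with PBS.

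**Figure D5:**
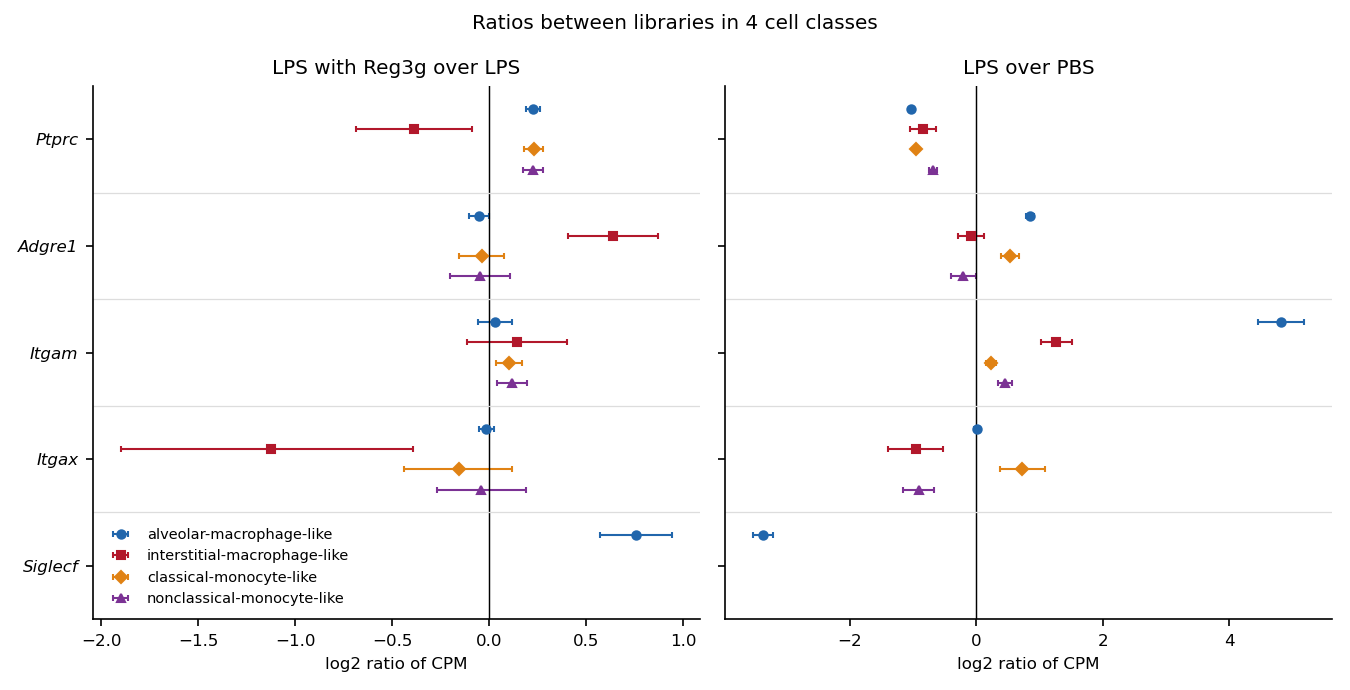
Log2 ratios of CPM (x axis) for 5 antigen genes (rows) in 4 cell classes, LPS with Reg3g over LPS on the left and LPS over PBS on the right, with exact conditional binomial 95% intervals; both ratios use the LPS library, and Siglecf is drawn for alveolar-macrophage-like cells alone. Itgam reaches 4.81 and Siglecf -3.37 for LPS over PBS in alveolar-macrophage-like cells, while Ptprc lies below 0 in the 4 classes.

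Ly6g was nearly absent outside neutrophil-like cells. Its UMIs in kept cells numbered 63 with LPS and Reg3g, 36 with LPS and 9 with PBS, of which 56, 26 and 9 lay in neutrophil-like cells. This class, which a Ly6G-negative gate is meant to leave out, had 156 cells with LPS and Reg3g, 162 with LPS and 2 with PBS. Its Ly6g level was 80.8 CPM (61.0 to 105) with LPS and Reg3g and 37.7 (24.6 to 55.2) with LPS. Of these cells 24 of 156 and 18 of 162 had a Ly6g UMI. The remainder had none at median depths of 2925.5 and 3495 UMIs, which limits cells with a captured molecule and not cells with the protein. Alveolar-macrophage-like cells had 2 Ly6g UMIs with LPS and Reg3g, 1 with LPS and 0 with PBS, where 3 counts would be 0.106 CPM.

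The sorted cells also held cells of other types, in which the integrin genes differed between libraries. T-or-NK-cell-like cells had 346 CPM of Itgam (122 UMIs in 91 cells) with LPS and Reg3g, 150 CPM (69 UMIs in 152 cells) with LPS and 44.6 CPM (14 UMIs in 98 cells) with PBS. The log2 ratio was 1.21 (0.77 to 1.66) for LPS with Reg3g over LPS and 1.75 (0.90 to 2.69) for LPS over PBS. Neutrophil-like cells had level Itgam, 395 CPM with LPS and Reg3g and 400 with LPS, but 147 CPM of Itgax (102 UMIs) with LPS and Reg3g and 59.4 CPM (41 UMIs) with LPS, a log2 ratio of 1.31 (0.77 to 1.87). In the same neutrophil-like cells the 16 alveolar macrophage markers summed to 5968 CPM with LPS and Reg3g and 4284 with LPS, and the 12 neutrophil markers to 54254 and 23268 CPM; their part in the Itgax difference was not tested. Type-2-dendritic-cell-like cells had 280 CPM of Itgam (224 to 346) with LPS and Reg3g, 168 (145 to 193) with LPS and 197 (181 to 214) with PBS. Migratory-dendritic-cell-like cells, dendritic cells that express the lymph node homing receptor Ccr7, had little of either chain, with 23.0 CPM of Itgam and 39.8 of Itgax with LPS and Reg3g, 22.2 and 36.0 with LPS, and 15.7 and 74.2 with PBS.

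The RNA counterpart of the gate, a cell with UMIs of Ptprc, Adgre1 and either integrin chain and with none of Ly6g, was met by 42.0% of kept cells with LPS and Reg3g, 31.8% with LPS and 32.6% with PBS. At 1000 UMIs per cell 2.44% (2.13 to 2.77), 2.04% (1.81 to 2.30) and 1.79% (1.51 to 2.11) met it. Unthinned, alveolar-macrophage-like cells met it in 56.0%, 46.9% and 47.8%, and lymphoid cells in 11.2%, 10.2% and 3.05%. Also unthinned, alveolar-macrophage-like cells with UMIs of both chains made up 28.3% with LPS and Reg3g, 24.5% with LPS and 1.46% with PBS. Those with Itgax alone made up 54.0%, 54.4% and 86.4%. Unthinned shares are not at equal depth, since these cells had medians of 7557, 6045 and 7665.5 UMIs in the same order.

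Of the 5 genes with at least 10 CPM in alveolar-macrophage-like cells, Itgam was at least 2-fold higher and Ptprc and Siglecf at least 2-fold lower with LPS than with PBS. Ptprc did not reach 2-fold, with log2 ratios of -0.72 and -0.68, when libraries were scaled by median-of-ratios or by a trimmed mean. Among all 7841 genes measured so, 5.75% were at least 2-fold higher and 14.0% at least 2-fold lower. For LPS with Reg3g over LPS none of the 5 reached 2-fold, where 0.0419% of 7167 genes were that much higher and 0.0698% that much lower. Partner and relative lists, chosen with results of these data known, were counted in the same cells for LPS over PBS. Of 9 genes measured from the list of integrins and their partners, 7 of them integrin chains and the others the integrin activators Fermt3 and Tln1, 0 were at least 2-fold higher and 3 lower, with a median of -0.67 beside -0.25 for all genes. The lower ones were Itga4 (-1.61), Itgal, the alpha chain of LFA-1 (-1.31), and Itgb5 (-1.16), and Itga6 stood at -0.68. The common beta chain Itgb2, named after its values were seen, had 363 CPM with LPS and Reg3g, 330 with LPS and 389 with PBS, a log2 ratio of LPS over PBS of -0.24 (-0.28 to -0.20). Of 5 other Siglecs, Siglece (1.19) and Cd33 (1.03) were at least 2-fold higher and 0 lower, with Cd22 at -0.64, Siglec1 at -0.61 and a list median of -0.14. Of 8 listed Ly6 genes 3 were measured, and these were at least 2-fold higher, Ly6i (6.92), Ly6c2 (2.92) and Ly6e (1.02). With PBS, Ly6i had 0.673 CPM and Ly6c2 3.12. Both reached 10 CPM only with LPS, so that the minimum fixed their direction. Of 4 measured genes of the list of CD45 partners and substrates, 1 was at least 2-fold lower, Fyn (-1.59), with Lyn at -0.84, Fgr at -0.24 and a list median of -0.54. Fyn reached 10 CPM only with PBS and had 9.46 CPM with LPS. The only EGF-TM7 relative of Adgre1 measured, Adgre5, stood at 0.67, and reached 10 CPM only with LPS, with 7.44 CPM with PBS. Of 18 other antigens used to sort lung myeloid cells, 5 were at least 2-fold higher, and 6 lower, with a median of -0.53. Among the lower ones, Fcgr1, Treml4 and Cd86 reached 10 CPM only with PBS. They had 9.36, 7.18 and 5.29 CPM with LPS. Among the higher ones, Ly6c2, also counted in the Ly6 list, reached 10 CPM only with LPS. The minimum thus fixed the direction of these genes. The largest ratios were those of Ly6c2 (2.92), the antibody receptor Fcgr1 (-2.07), the scavenger receptor Marco (1.89) and the hyaluronan receptor Cd44 (-1.50). For LPS with Reg3g over LPS, 0 members of any of the 6 lists reached 2-fold.

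The genes whose levels ran most like each antigen were taken over 28 pairs of class and library with at least 50 cells, among 6179 genes, by Pearson's r of log2(CPM + 1). The pairs share 3 libraries, and r is given as a description. They were Ikzf1 (0.92), Rassf5 (0.87) and Dhx40 (0.87) for Ptprc, and Hmox1 (0.92), Wdfy3 (0.88) and Cndp2 (0.87) for Adgre1. Those for Itgam were Ms4a6c (0.90), Clec4a1 (0.89) and Pla2g7 (0.88), and those for Itgax included Hipk2 (0.78) and Cd9 (0.78). Ly6g ran with the neutrophil genes Prok2 (0.99), Ngp (0.98) and Mrgpra2b (0.98), and Siglecf with Ear1, an eosinophil-type ribonuclease of alveolar macrophages (0.84), Flvcr2 (0.84) and Tmem216 (0.82). Among the 6 antigens themselves Itgax and Siglecf were most alike (0.60) and Itgam and Siglecf most opposed (-0.41). None of these relations with r was tested.

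The last bases of 2 antigen genes share sequence with other genes. In the GENCODE M21 annotation 33.2% of 91-base stretches in the last 1000 bases of Itgam transcripts also occur in Gm49368, a same-strand gene that overlaps its exons, and 3.08% of those of Itgax occur in Itgad, which does not overlap it. How the authors' counting assigned reads there was not tested. Gm49368 itself had 6 UMIs in alveolar-macrophage-like cells with LPS and Reg3g, 6 with LPS and 0 with PBS. The other 4 antigen genes shared 0 such stretches.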

How the data were processed

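Per the labels' protocols, sorted lung cells were captured as single cells with 3′ end chemistry. The submitters' processing notes name bcl2fastq 5.0.1, Cell Ranger 9.0.1, Seurat 4.4.0 and the mm10 build. The deposited matrices hold raw UMI counts per gene and barcode, made by the authors without normalization. The annotation used for counting was not given in the sources used here.

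Barcodes under 500 genes or 1000 UMIs, or over 15% mitochondrial UMIs, were dropped. The highest Scrublet scores, at 0.4% per 1000 barcodes, were removed as doublets in each library. The 3 libraries were clustered together with scanpy 1.11.5 (2000 variable genes without the 6 antigen genes, 30 components, 15 neighbours, Leiden resolution 1). Clusters were called by the highest mean z-score over 19 marker lists, with at least 3 detected markers. Rules that left clusters unnamed were set after the clusters were seen. They were fewer than 3 detected markers, mitochondrial or ribosomal leading genes, or a median doublet score above 0.1. Further rules were shallow cells without own markers among the leading genes, or more leading genes of another list than of their own. Another was a list with fewer than 3 detected markers that scored over 1 higher than the best list. The rebuilt names may differ from the authors' own. The lymphoid cells joined the T-or-NK-cell-like and B-cell-like classes.

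CPM was the UMI sum of a gene in a class of 1 library over all UMIs of that class. Intervals came from scipy 1.17.1, and their computation was tested on simulated Poisson counts. Such counts hold no spread between cells or mice, so the coverage of the intervals in the real counts was not tested. Shares were also taken after thinning each cell to 1000 UMIs, a depth each kept cell reached. A gene counted as measured from 10 CPM upward in either library. Text names the 6 antigens, up to 4 genes per partner list with the largest ratio of LPS over PBS, and the 3 genes most alike to each antigen by r, among genes with at least 50 CPM in 1 pair or more. Not every gene this rule names is reported here. The antigens and the lists were chosen with earlier results of these data known. Loci came from GENCODE M21, in which 94.1% of 55357 gene IDs matched, and promoter sequences from RefSeq on GRCm38.p6, of which the table held 5 of the 6 antigens. Alternatives changed the cell filter, doublet removal, clustering, scaling, cell weights, thinning and the CPM minimum.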

Additional observations from a re-analysis of the deposited data

Results flagged for a closer look

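In 4 instances an antigen gene moved one way in some classes and the opposite way in others, each with an interval of counting error that left out 0. Each class is a single value per library, and the difference between classes was not tested. For LPS with Reg3g over LPS, the log2 ratio of Ptprc was 0.22 in alveolar-macrophage-like, 0.23 in classical-monocyte-like, 0.23 in nonclassical-monocyte-like and 0.44 in type-2-dendritic-cell-like cells, and -0.39 in interstitial-macrophage-like cells. For the same libraries, Adgre1 was at 0.64 in interstitial-macrophage-like and 1.29 in migratory-dendritic-cell-like cells, and at -0.054 in alveolar-macrophage-like cells. For LPS over PBS, Adgre1 was at 0.85 in alveolar-macrophage-like and 0.54 in classical-monocyte-like cells, and at -0.20 in nonclassical-monocyte-like and -1.12 in migratory-dendritic-cell-like cells. Itgax was at 0.72 in classical-monocyte-like cells, and at -0.95 in interstitial-macrophage-like, -0.91 in nonclassical-monocyte-like, -0.25 in type-1-dendritic-cell-like and -1.04 in migratory-dendritic-cell-like cells.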

How the results depend on the processing

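No paired analysis was possible because each group held 1 library. The values below are log2 ratios in alveolar-macrophage-like cells unless said otherwise; weighting clusters as in the LPS library and leaving out cycling cells were chosen after seeing the data, and the cause of each shift was not tested. For LPS over PBS, scaling by median-of-ratios gave -0.72 for Ptprc, 1.16 for Adgre1, 0.32 for Itgax and -3.06 for Siglecf, and a trimmed mean gave -0.68, 1.19, 0.35 and -3.03. Thinned cells gave -0.96 for Ptprc and -0.073 for Itgax, and doubled doublet removal gave 5.34 for Itgam. With all kept cells together, Ptprc was at -0.70, Adgre1 at 0.57, Itgam at 1.48 and Itgax at -0.24. For LPS with Reg3g over LPS, Adgre1 changed sign with thinned cells (0.011) and with all kept cells (0.076). Ptprc gave 0.18 by a trimmed mean, 0.19 thinned and 0.17 with clusters weighted, Itgam -0.086 thinned, Itgax -0.054 by a trimmed mean and 0.12 with all kept cells, and Siglecf 0.49 with clusters weighted. The RNA gate was met by 9.89%, 8.45% and 7.08% of cells at 2000 UMIs and by 42.0%, 31.8% and 32.6% unthinned, with LPS and Reg3g, LPS and PBS. With a minimum of 5 CPM, LPS over PBS counted 528 genes past 2-fold upward and 1448 downward, and LPS with Reg3g over LPS 5 and 11; at 50 CPM these counts were 250 and 460, and 0 and 2. Depth limits Ly6g and the Siglecf values outside alveolar-macrophage-like cells, which rest on few UMIs.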
